A study of Mus musculus and Homo sapiens with 83 samples.

Results

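The mitochondrially encoded genes of the mouse are the 37 genes of the mitochondrial DNA (mtDNA), and they were taken from the mouse count tables as every gene whose symbol starts with mt-. They comprise 13 protein genes, 2 rRNA genes and 22 tRNA genes of 55401 gene IDs in all, and every one of the 37 was found by its Ensembl ID. They were described in 24 single E14 (129/Ola) mouse embryonic stem cells (mESCs), an established line.

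Of the 83 samples of the series, these 24 are the mESC RNA libraries of AMAR-seq, and the 41 DNA samples and 18 RNA libraries of the human line K562 were not used here. In AMAR-seq a cell held by ConA beads is opened in a hypotonic buffer on a chip, electrodes move the cytoplasmic RNA away, and a Smart-seq2 type cDNA library is made from it, labelled as poly(A) RNA, while the nucleus goes to DNA methylation and accessibility assays. The 6 cells of day 0 were grown on embryonic fibroblast feeders with leukemia inhibitory factor (LIF). The 7 cells of day 3, 6 of day 6 and 5 of day 9 were replated on gelatin and grown without LIF or feeders, which sets off undirected differentiation. Genotype and line are the same in all 4 groups. No label ties cells to separate cultures, so each day is 1 sample, cells are not replicates, and no test between days was made. A difference between days therefore cannot be told apart from a difference between dishes or chip runs.

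The mtDNA encodes core subunits of 4 complexes of oxidative phosphorylation and the rRNAs and tRNAs of the ribosome that translates them inside the organelle. Each strand is transcribed as a long precursor, which is cut largely at the tRNAs, so that the level of a single product depends on both transcription and the stability of the RNA after it is cut. Most mt-mRNAs carry a short poly(A) tail, and mt-Nd6 is the known exception. Undifferentiated mESCs are known for small mitochondria with few cristae, which mature as the cells differentiate.

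Libraries held 3913595 to 16367029 reads on genes. The most-read gene, CT010467.1, took 12.96% to 75.2% of them and was kept in the totals. Between 7 and 9 of 10 pluripotency markers had reads in every cell, with a summed level of 2981 to 15987 counts scaled to 1000000 gene reads (CPM). Dppa5a made up most of this level, with 10409, 7956, 7907 and 6000 CPM over the cells of days 0, 3, 6 and 9. Other members were far lower and went different ways. Pou5f1 had 137, 572, 576 and 271 CPM, and Esrrb had 111, 29.9, 52.8 and 29.8. Of 11 fibroblast markers, 0 to 9 had reads in a cell, and their summed level was 0.229 to 368 CPM on day 0, 2.78 to 25.1 on day 3, 0 to 97.0 on day 6 and 6.13 to 140.2 on day 9. In every group fewer mitochondria and less RNA per mitochondrion cannot be told apart.

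Reads on the 37 genes were 13.1% of gene reads summed over the day 0 cells, 3.33% on day 3, 5.47% on day 6 and 7.34% on day 9. The exact 95% intervals of these shares, which cover counting error only, were 13.10% to 13.12%, 3.32% to 3.33%, 5.46% to 5.47% and 7.33% to 7.35%. Cells differed far more than this. The day 9 sum rested on cell 4, with 18.6% in that cell, and was 4.77% without it. The 2 lowest cells of day 0, cells 5 and 6, lay at 3.29% and 4.09%, within the range of day 3, so the days overlapped in the total. These cells had reads on 6 and 9 fibroblast markers, at summed levels of 95.9 and 368 CPM. Cells 1 to 4 had reads on 1, 4, 3 and 1, at 0.229, 122, 80.9 and 0.862 CPM. Cells 5 and 6 also had reads on 9 and 8 pluripotency markers. The part of feeder RNA in these totals was not tested.

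**Figure D1:**
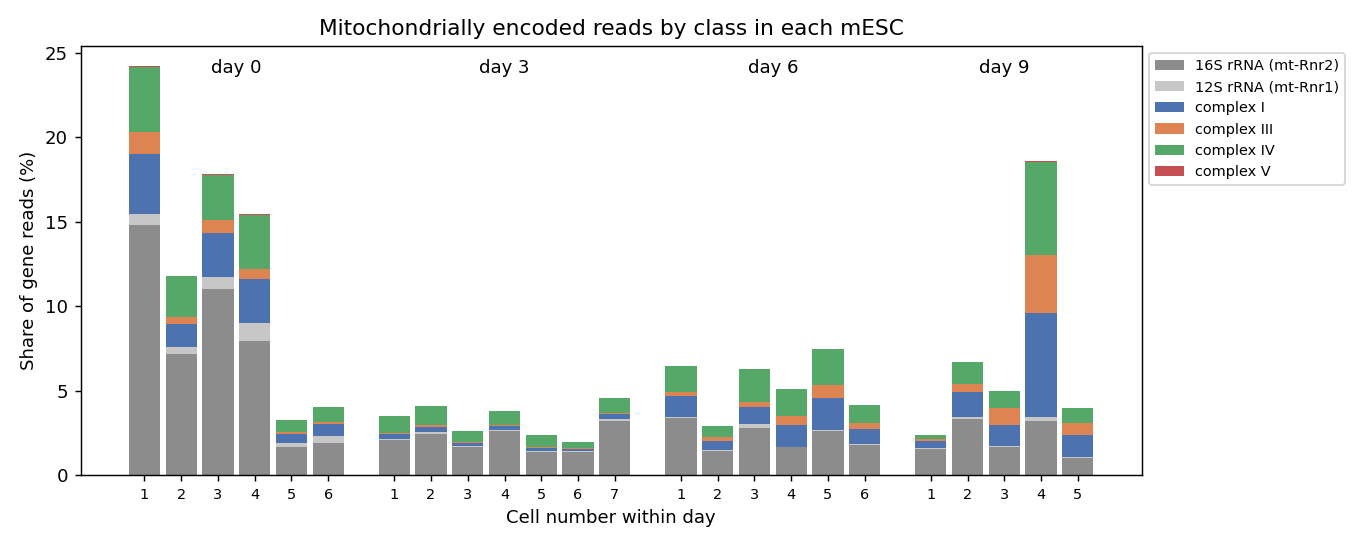
Share of gene reads (%, linear axis from 0) on mt rRNA and on the mt-encoded subunits of complexes I, III, IV and V in each of the 24 cells, grouped by day; tRNA reads are too few to draw. The 16S rRNA is the largest block in every cell of days 0 and 3, whereas protein genes take most of the bar in day 9 cells 3, 4 and 5.

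In the sum of each day, the 2 rRNA genes took most mt reads on days 0 and 3 and a minority later. Cells 1 and 2 of day 6 and of day 9 still had most of their mt reads on rRNA. mt-Rnr2, at positions 1094 to 2675 of MT, encodes the 16S rRNA of the large mitoribosomal subunit, and mt-Rnr1, at 70 to 1024, the 12S rRNA of the small subunit. Together they took 63.0% of mt reads on day 0, 66.6% on day 3, 44.6% on day 6 and 30.2% on day 9. Its total is the reads on mt genes and not all gene reads. Across cells its lowest, median and highest values were 56.5%, 61.1% and 65.9% on day 0, 59.8%, 66.1% and 72.9% on day 3 and 33.0%, 46.3% and 53.4% on day 6. In the 5 cells of day 9 it was 67.2%, 51.5%, 35.0%, 18.5% and 27.2%. All 6 cells of day 6 lay below all 13 cells of days 0 and 3. Day 9 cells were spread over the whole range, with cell 1 as high as the day 3 cells.

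Per kilobase of gene, the level of mt-Rnr2 was the highest of the 15 rRNA and protein genes in all cells of days 0, 3 and 6 and in 3 of 5 cells of day 9. Its lowest, median and highest levels were 10659, 47772 and 93569 CPM per kb on day 0, 8603, 13412 and 20335 on day 3 and 9232, 13926 and 21303 on day 6. The day 9 cells had 9840.4, 21213, 10694, 20373 and 6569.7 CPM per kb. Day 0 cells 1 to 4 thus stood above every later cell, while cells 5 and 6 lay within the later range.

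The 12S rRNA was lower than the 16S rRNA in every cell. mt-Rnr1 had 2278, 5499 and 11608 CPM per kb (lowest, median, highest) on day 0, 541, 719 and 1339.6 on day 3 and 377, 705 and 2361 on day 6. On day 9 the cells had 683, 1131, 546, 2274 and 555 CPM per kb. The day 0 cells did not overlap those of day 3 or day 9, although on day 9 the highest cell, cell 4, came within a small margin of the lowest day 0 cell. The 16S to 12S ratio of per-length levels was 2.89, 6.86 and 14.0 on day 0 (lowest, median, highest), 11.6, 14.8 and 24.8 on day 3 and 7.55, 21.2 and 25.4 on day 6. On day 9 it was 14.4, 18.8, 19.6, 8.96 and 11.8. Both rRNAs come from the same stretch of the precursor, and the ratio between them varied from cell to cell on each day, most on days 0 and 6.

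The subunits of complex I, NADH dehydrogenase, are encoded by 7 of the genes, of which mt-Nd1, at positions 2751 to 3707, was read most. mt-Nd1 encodes a membrane subunit beside the quinone site. Its lowest, median and highest levels were 1168, 8179 and 19331 CPM per kb on day 0, 594, 750.0 and 1231 on day 3 and 2540.2, 5093 and 9722 on day 6. The day 9 cells had 2133, 8642, 6637, 39991 and 8455 CPM per kb. The day 3 cells lay low as a group, all of them below all day 6 and day 9 cells, and the highest of them just overlapped day 0 cell 5. Day 9 cell 4 stood far above the others of its day.

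mt-Nd2, mt-Nd4 and mt-Nd5 encode proton-pumping membrane subunits of complex I. mt-Nd5, the most distal of these 3 on the heavy-strand precursor, had 1476, 3018 and 5673 CPM per kb on day 0 (lowest, median, highest), 277, 454 and 559 on day 3, 681, 1562 and 2913 on day 6, and 493.4, 1513, 1625, 5396 and 886 in the day 9 cells. mt-Nd4 had 618, 1431 and 3495 CPM per kb on day 0, 216, 505 and 599 on day 3, 545, 1299 and 1502 on day 6, and 352, 1493, 1188, 6348 and 1565 on day 9. mt-Nd2 had 525.6, 1258 and 3060.0 CPM per kb on day 0, 101, 183 and 202 on day 3, 349, 1058 and 2232 on day 6, and 492, 1261, 1245, 3788 and 821 on day 9. For all 3 genes every day 3 cell lay below every day 0 cell. These products of the same strand did not stay in a fixed proportion. The mt-Nd5 to mt-Nd4 ratio of per-length levels was 0.853 to 3.16 on day 0 with a median of 2.36, against medians of 0.968, 1.40 and 1.01 on days 3, 6 and 9, with overlapping ranges.

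mt-Nd6, at positions 13552 to 14070, is the single protein gene of the light strand. It had 215, 1029 and 2567 CPM per kb on day 0 (lowest, median, highest), 63.5, 122 and 187 on day 3, 178, 534 and 775 on day 6, and 186, 446, 707, 1818 and 306 on day 9. Relative to mt-Nd5, which lies on the other strand and overlaps it by 14 bases, its per-length level had medians of 0.295, 0.335, 0.269 and 0.346 on days 0, 3, 6 and 9. The range of this ratio was 0.139 to 0.861 on day 0 and 0.215 to 1.08 on day 6, wider than any step between the medians. The strand setting of the counting is not known, so reads from mt-Nd6 and from antisense RNA over its interval cannot be told apart.

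Complex III, the cytochrome bc1 complex, has a single mt-encoded subunit, cytochrome b, from mt-Cytb at positions 14145 to 15288. Its lowest, median and highest levels were 1156, 4654 and 11431 CPM per kb on day 0, 399, 535 and 670.1 on day 3, and 2197, 2882 and 6538 on day 6. The day 9 cells had 897, 4393, 8693, 29698.5 and 6389.7 CPM per kb. Every day 3 cell lay below every cell of the other 3 days.

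Complex IV, cytochrome c oxidase, has mt-Co1, mt-Co2 and mt-Co3 as its mt-encoded catalytic core. mt-Co1, at positions 5328 to 6872, encodes the subunit that holds the oxygen-reducing centre and was the most-read protein gene on every day. It had 4495, 16239 and 24608 CPM per kb (lowest, median, highest) on day 0, 2289.7, 5352 and 7269.7 on day 3, and 4362, 10014 and 13749 on day 6. The day 9 cells had 1714, 8145, 6264, 35753 and 5708. Here day 3 overlapped with each of the other days. The share of mt-Co1 in mt-mRNA reads, summed over the cells of a day, was 47.1% on day 0, 71.8% on day 3, 48.3% on day 6 and 34.7% on day 9, and that of mt-Nd1 was 17.5%, 6.88%, 17.3% and 24.7%.

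**Figure D2:**
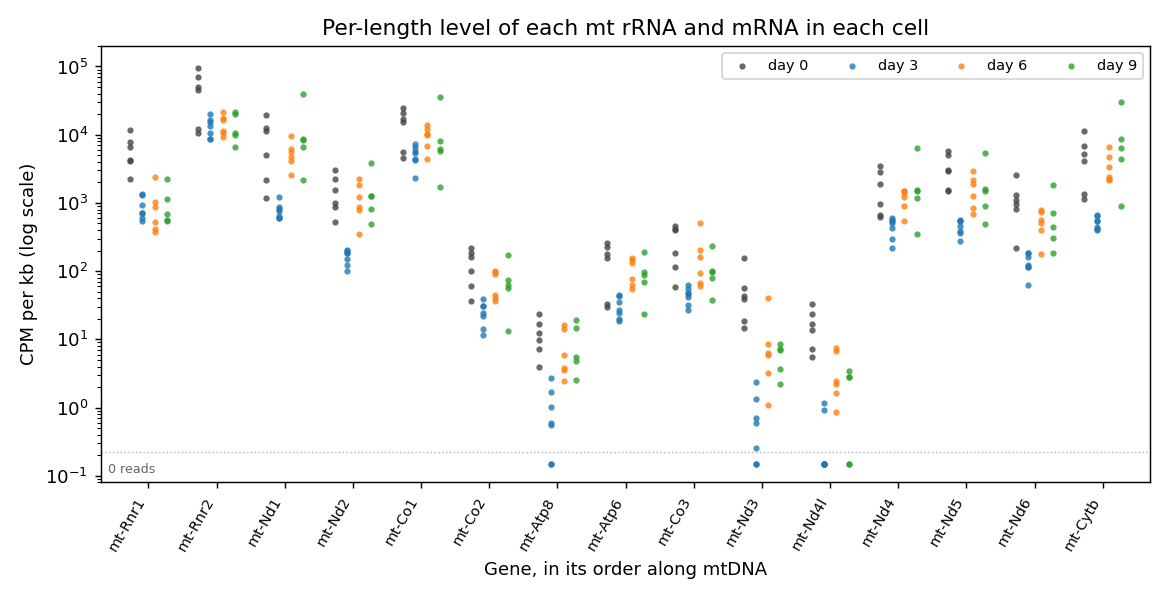
Level of each mt rRNA and protein gene in each of the 24 cells, in CPM per kb of gene on a log axis, with genes in their order along mtDNA and days in colour; cells with 0 reads are drawn below the dotted line. Day 3 cells (blue) are the lowest group for most genes, and the 6 genes from mt-Co2 to mt-Nd4l lie far below mt-Co1 and mt-Nd4 on either side of them.

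A run of 6 neighbouring protein genes, mt-Co2, mt-Atp8, mt-Atp6, mt-Co3, mt-Nd3 and mt-Nd4l, from position 7013 to 10173, had few reads in all cells. Together they took 0.289% to 1.84% of the mt-mRNA reads of a cell, with a median of 0.727%. Summed over the day 0 cells, the levels were 130 CPM per kb for mt-Co2, 274 for mt-Co3, 150.3 for mt-Atp6, 12.1 for mt-Atp8, 50.7 for mt-Nd3 and 16.3 for mt-Nd4l, against 14769 for mt-Co1 on one side and 1715 for mt-Nd4 on the other. The run includes both subunits of complex V, the ATP synthase, which are mt-Atp6 and mt-Atp8.

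The levels of these 6 genes are uncertain. Pseudogenes in the nuclear genome match the part from mt-Atp6 to mt-Nd4l in length and spacing. Reads aligned to more than 1 place stand in a closing line of each file, not on a gene. No sequences were compared. How far a nuclear copy reaches on either side, also into mt-Co1 or mt-Nd4, was not checked. RefSeq (GRCm38.p6) places the pseudogene Gm10925, which has mt-Atp6 among its synonyms, at chr1:24613971-24614651, and Gm10222 at chr1:24612404-24612700. Gm10925 is 681 bases long, as is mt-Atp6, and Gm10222 is 297 bases long, as is mt-Nd4l. The gap between the 2 is 1271 bases on chromosome 1 and 1270 bases between mt-Atp6 and mt-Nd4l on mtDNA. In each cell Gm10925 had 1.09 to 2.47 reads for each mt-Atp6 read (median 1.53). Over the 24 cells, which share libraries and depth, reads on the 6 genes and on the 7 listed nuclear copies had a Spearman correlation of 0.94 and a Pearson correlation of 0.89. Only Gm10925 and Gm10222 of the 7 have a RefSeq position here, so that the other 5 were not checked as copies. Of the 7, 7 were at least 2-fold lower on day 3 than on day 0, where 23.5% of all measured genes were, with a median relative log2 ratio of -2.74 (the ratio less that of the median gene). How many of these reads come from mtDNA was not tested.

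Within that limit, mt-Co3, an oxidase core subunit, had 59.0, 295 and 461 CPM per kb on day 0 (lowest, median, highest), 27.4, 46.5 and 63.4 on day 3, 61.5, 129 and 511 on day 6, and 37.8, 96.2, 80.4, 231 and 102 on day 9. mt-Co2, whose product receives electrons from cytochrome c, had 36.0, 132 and 222 CPM per kb on day 0, 11.5, 24.4 and 38.9 on day 3, 37.1, 67.0 and 101 on day 6, and 13.1, 63.0, 56.8, 172 and 73.6 on day 9. mt-Atp6, which forms part of the proton channel, had 30.3, 167 and 255 CPM per kb on day 0, 18.5, 26.5 and 44.5 on day 3, 55.1, 104 and 156 on day 6, and 23.6, 88.1, 69.9, 193 and 97.6 on day 9. All 3 were lowest on day 3 by their medians and overlapped day 0 there. mt-Atp8, which lies over mt-Atp6 by 43 bases, and the complex I subunit genes mt-Nd3 and mt-Nd4l had 297, 1124 and 314 reads over all 24 cells, and each of these had cells with no read on day 3.

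Cell by cell, the proportions among the complexes separated the days more cleanly than the total did. For each complex, reads per kb of its genes were divided by reads per kb of all 13 protein genes, so that 1 is the average density and reads on nuclear genes do not enter, although reads from the nuclear copy may lie on the 6 genes of the uncertain run. The density of complex IV was 1.66, 1.90 and 2.16 on day 0 (lowest, median, highest), 2.36, 2.78 and 2.82 on day 3, 1.69, 1.77 and 2.27 on day 6, and 1.31, 1.48, 1.14, 1.39 and 1.16 in the day 9 cells. Day 3 lay above all other days and day 9 below all other days, with no cell in common.

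Complexes I and III lay the other way on day 3. The densities are parts of a single total, so a higher complex IV lowers the others, and these separations are not independent results. Complex IV was in effect mt-Co1, which held 71.8% of the mt-mRNA reads of day 3, where the whole complex held 72.3%. The density of complex I was 0.566, 0.725 and 0.761 on day 0 (lowest, median, highest), 0.375, 0.384 and 0.524 on day 3, 0.557, 0.670 and 0.734 on day 6, and 0.932, 0.809, 0.698, 0.731 and 0.790 on day 9. That of complex III was 0.883, 1.03 and 1.49 on day 0, 0.449, 0.532 and 0.791 on day 3, 0.829, 1.56 and 1.74 on day 6, and 1.32, 1.55, 3.06, 2.24 and 2.50 on day 9. In both complexes every day 3 cell lay below every other cell. The density of complex V was at most 0.0534 in any cell and its ranges overlapped on all days. It rests on genes of the uncertain run.

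**Figure D3:**
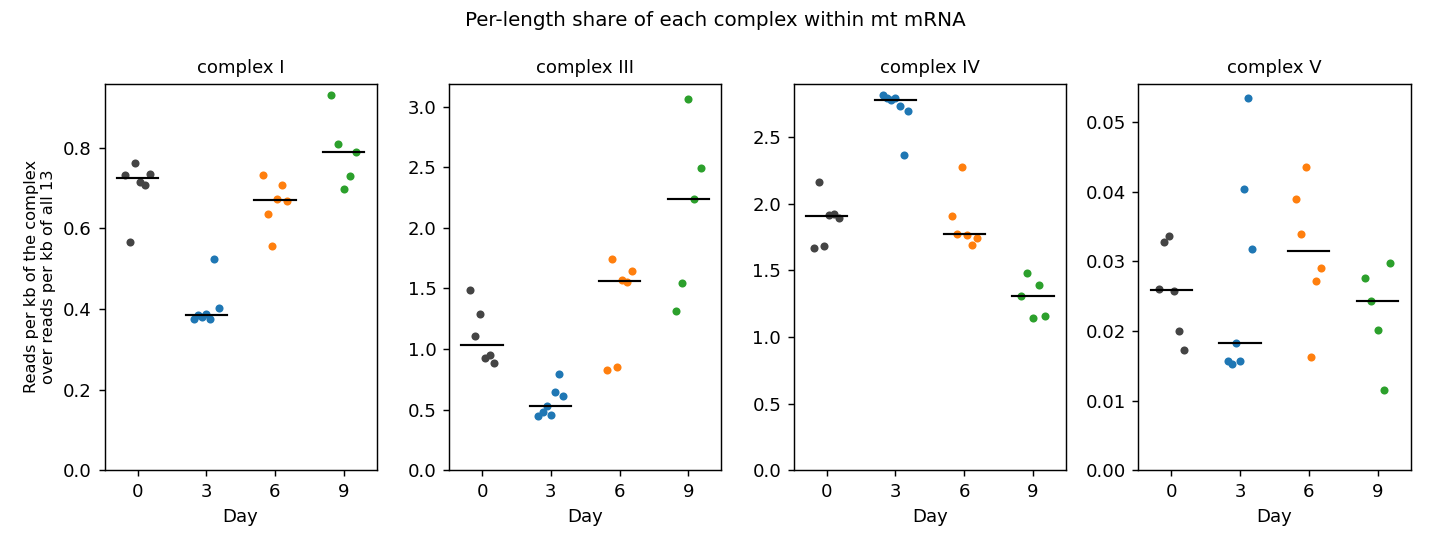
Reads per kb of each complex's mt-encoded genes divided by reads per kb of all 13 (linear axes from 0, a separate scale in each panel), with a point for each cell and a line at the median of the day. Day 3 cells are lowest in complexes I and III and highest in complex IV, and day 9 cells are lowest in complex IV.

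The order of the complexes by density was IV, III, I, V in all 19 cells of days 0, 3 and 6 and III, IV, I, V in all 5 cells of day 9. This change of order rests on the low mt-Co2 and mt-Co3. Without the 6 genes of the uncertain run, complex IV, then mt-Co1 alone, had a density of 1.90 on day 9 against 1.71 for complex III, and complex IV was the higher on every day. mt-Cytb exceeded mt-Co1 per length in 2 of 5 cells of day 9, cells 3 and 5, and in no cell of the other days.

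Ratios of single genes to mt-Co1, all outside the uncertain run, showed the same separation, although whether a nuclear copy reaches into mt-Co1 was not checked. They rest largely on the same reads as the densities and are not a separate result. The mt-Cytb to mt-Co1 ratio of per-length levels was 0.243, 0.262 and 0.465 on day 0 (lowest, median, highest), 0.0820, 0.0987 and 0.174 on day 3, 0.197, 0.467 and 0.510 on day 6, and 0.523, 0.539, 1.39, 0.831 and 1.12 on day 9. All day 3 cells lay below and all day 9 cells above all others, the latter by a small margin over day 6. The mt-Nd1 to mt-Co1 ratio was 0.260, 0.465 and 0.786 on day 0, 0.135, 0.143 and 0.260 on day 3, 0.379, 0.594 and 0.707 on day 6, and 1.24, 1.06, 1.06, 1.12 and 1.48 on day 9. Its day 9 cells stood apart from all others, and the highest day 3 cell met the lowest day 0 cell. Cells 5 and 6 of day 0, which had day 3-like totals of mt reads, had mt-Cytb to mt-Co1 ratios of 0.257 and 0.243, above every day 3 cell.

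Against the 16S rRNA, the mRNA of mt-Nd1 next to it on the precursor had a per-length ratio of 0.110, 0.179 and 0.225 on day 0 (lowest, median, highest), 0.0401, 0.0656 and 0.0799 on day 3, 0.259, 0.319 and 0.599 on day 6, and 0.217, 0.407, 0.621, 1.96 and 1.29 on day 9. Days 0, 3 and 6 did not overlap. Day 9 cells covered a wide span, and mt-Nd1 exceeded the 16S rRNA per length in cells 4 and 5 alone.

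With the days pooled, the composition also moved with another property of the libraries. Over the 24 cells, the rRNA share of mt reads and the CT010467.1 share of gene reads had a Pearson correlation of 0.78 and a Spearman correlation of 0.74. Days 0 and 3 did not show this within the day. Day 0 cell 6 had the highest CT010467.1 share of its day, 58.1%, and the lowest rRNA share, 56.5%. Day 3 cell 6 had the lowest CT010467.1 share of its day, 37.0%, with an rRNA share of 71.1%. On days 6 and 9, cell 1 was the highest and cell 4 the lowest of its day in both shares. In day 6 cells 1 to 6, CT010467.1 took 47.1%, 45.0%, 27.7%, 19.4%, 29.8% and 30.9% of gene reads. Their rRNA shares were 53.4%, 50.6%, 48.2%, 33.0%, 35.8% and 44.4%. In day 9 cells 1 to 5, CT010467.1 took 73.1%, 38.2%, 17.5%, 12.96% and 27.0% of gene reads, beside the rRNA shares of 67.2%, 51.5%, 35.0%, 18.5% and 27.2% given above. The total mt share and the number of genes with a read in 1000000 gene reads had a Pearson correlation of -0.61 and a Spearman correlation of -0.45. Day 0 cells 1 to 4, with the high mt shares, had 3455, 4334, 6412 and 8424 such genes, and cells 5 and 6 had 9709 and 9820.1. The points share library and depth, and the part of these properties in the mt results was not tested.

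**Figure D4:**
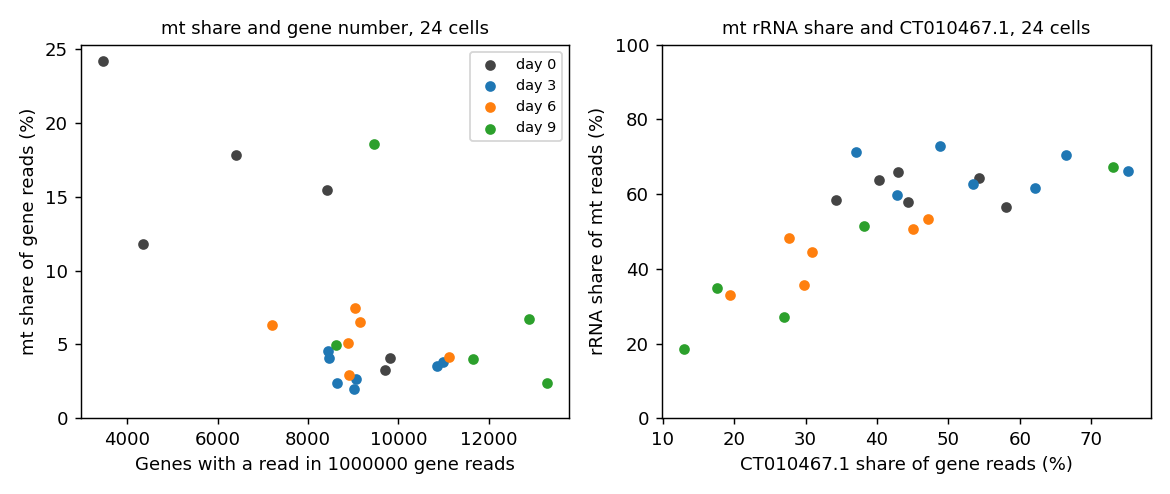
Left, mt share of gene reads (%) against the number of genes with a read in 1000000 gene reads; right, rRNA share of mt reads (%) against the CT010467.1 share of gene reads (%), with a point for each of the 24 cells coloured by day. The 4 day 0 cells above 10% mt reads have 3455 to 8424 genes, and rRNA shares are lowest where CT010467.1 is low.

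Differences between days were also set against all other genes. A relative log2 ratio is the log2 ratio of summed CPM plus 1 between 2 days, less the median over all measured genes, which had a combined 20 or more reads on the compared days from 2 or more libraries. That median was 0.09, 0.49 and 0.71 for days 3, 6 and 9 against day 0, 0.44 for day 6 against day 3 and 0.19 for day 9 against day 6. The comparisons with day 0 share its 6 cells.

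On day 3 against day 0, 13 of 13 protein genes were at least 2-fold lower than the median gene, where 23.5% of 14758 genes were. Their median was -2.68, and their range reached from -1.61 for mt-Co1 to -3.99 for mt-Nd3. mt-Nd1 had -3.56, mt-Cytb -3.41, mt-Nd2 -3.28, mt-Nd6 -3.13 and mt-Nd5 -3.00, while mt-Nd4 had -2.01. The rRNA genes mt-Rnr1 and mt-Rnr2 had -2.87 and -1.94. For 8 of the 13, mt-Nd2, mt-Atp8, mt-Nd3, mt-Nd4l, mt-Nd4, mt-Nd5, mt-Nd6 and mt-Cytb, every day 3 cell was below every day 0 cell in CPM, where 0.413% of genes were. These genes share precursors and so do not vary independently. Among them mt-Atp8, mt-Nd3 and mt-Nd4l belong to the uncertain run and had 11, 15 and 5 reads over the day 3 cells. For mt-Nd4 the margin was small, with 599 CPM per kb in the highest day 3 cell and 618 in the lowest day 0 cell.

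On day 6 against day 0, 11 of 13 were at least 2-fold lower (23.1% of 15117 genes), with a median of -1.16. The count was 5 without day 0 cell 1 and 6 without day 6 cell 2. In the full sum 9 of the 13 lay between -0.89 and -1.39. The median gene was 0.49 higher on day 6 than on day 0 on the log2 scale. In CPM, without that median, these 9 stood at 0.53 to 0.76 of their day 0 level. mt-Nd5, mt-Nd6, mt-Nd4l and mt-Nd3 stood at 0.49, 0.46, 0.21 and 0.19 of it. In 0 of 13 did the cells of the 2 days separate, where 0.192% of genes did so in this direction, and the count was 1 without day 6 cell 3 or day 0 cell 5. Both rRNA genes lay lower than the median of the 13, with -3.24 for mt-Rnr1 and -2.20 for mt-Rnr2. From day 3 to day 6 the mRNAs rose, whereas the rRNAs changed little in CPM. mt-Rnr1 had 839 and 856 summed CPM on these days, and mt-Rnr2 had 21324 and 23530. The median gene was 0.44 higher on day 6 on the log2 scale, which makes the relative ratios of the rRNAs negative. Of the 13 protein genes, 8 were at least 2-fold higher on day 6 than on day 3 (19.1% of 15261 genes) with a median of 1.37, whereas mt-Rnr1 and mt-Rnr2 had -0.41 and -0.30. mt-Nd2, mt-Nd1 and mt-Cytb had 2.35, 2.33 and 2.28, and mt-Co1 had 0.43. mt-Nd1, mt-Nd2, mt-Atp6, mt-Nd5 and mt-Cytb, 5 of 13, were higher in every day 6 cell than in every day 3 cell, where 0.754% of genes were. That count was 10 without day 6 cell 2 and 8 without day 3 cell 5.

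On day 9 against day 0, 8 of 13 were at least 2-fold lower (23.8% of 15512 genes), 0 were at least 2-fold higher (25.2% of genes), and the median was -1.31. The genes spread most here, from 0.28 for mt-Cytb, -0.13 for mt-Nd1 and -0.34 for mt-Nd4 to -1.99 for mt-Co3 and -3.32 for mt-Nd3. Without day 9 cell 4, mt-Cytb had -0.48, mt-Nd1 -0.99 and mt-Nd4 -1.10, the last of these past the 2-fold line, and mt-Co1 had -1.98 in place of -1.07, mt-Nd5 -2.14 in place of -1.47 and mt-Nd6 -1.97 in place of -1.37. mt-Rnr1 had -3.30 and mt-Rnr2 -2.56. All these ratios are relative to the median gene, which was 0.71 higher on day 9 on the log2 scale. In CPM summed over all cells of a day, 4 protein genes were higher on day 9 than on day 0. mt-Cytb had 5975 and 11849 on days 0 and 9, mt-Nd1 8488 and 12631, mt-Nd4 2363 and 3046, and mt-Nd2 1567 and 1594. The other protein genes were lower in CPM, mt-Co1 with 22818 and 17751 and mt-Co3 with 215 and 88.0. The cells of the 2 days separated for 2 of the 13, mt-Nd3 and mt-Nd4l of the uncertain run, where 0.193% of genes did so. On day 9 against day 6, mt-Cytb (1.39) and mt-Nd1 (1.08) were the 2 of 13 at least 2-fold higher (21.2% of 16070 genes), and without day 9 cell 4 they had 0.69 and 0.28, so that 0 remained past that fold. The count was 1 without day 6 cell 2 or cell 6. In the other direction 0 of 13 were at least 2-fold lower, where 3221 of the 16070 genes were, and the count was 1 without day 9 cell 4, day 6 cell 2 or day 6 cell 4.

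**Figure D5:**
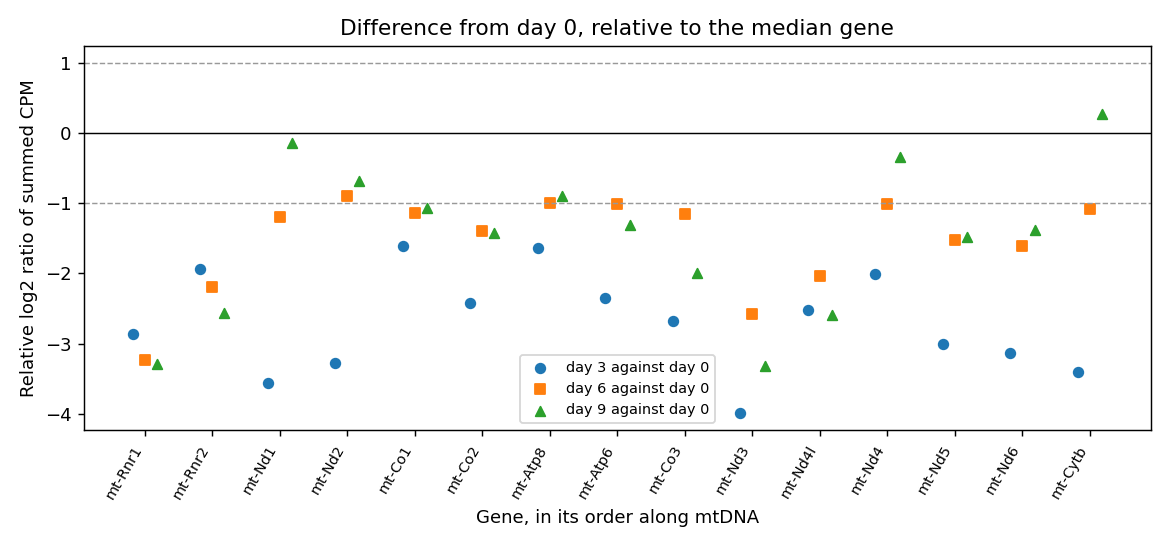
Relative log2 ratio of summed CPM on days 3, 6 and 9 against day 0 for the 15 mt rRNA and protein genes in mtDNA order; the solid line is the median gene and the dashed lines mark a 2-fold difference. On day 3 all 15 genes lie below the lower dashed line. On day 9 mt-Nd1, mt-Nd4 and mt-Cytb lie near 0 (at -0.99, -1.10 and -0.48 without day 9 cell 4). Both rRNA genes are at -2.56 or lower on day 9.

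Reads on the tRNA genes were rare. They were 6557, 655, 6615 and 2971 on days 0, 3, 6 and 9, or 0.110%, 0.0328%, 0.177% and 0.111% of mt reads. Of the 22 genes, 15 had a read in any cell and 7 had 0. mt-Tp, the proline tRNA gene of the light strand at positions 15356 to 15422, took 64.4%, 81.8%, 70.6% and 65.1% of the tRNA reads of the 4 days, and had reads in 24 of 24 cells.

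mt-Tp had 648, 1065 and 3337 CPM per kb (lowest, median, highest) on day 0, 73.4, 139.9 and 179 on day 3, 423, 626 and 2265 on day 6, and 664, 1834, 274, 1216 and 262 on day 9. Every day 3 cell lay below every other cell. The next 3 genes by reads, mt-Tc, mt-Tq and mt-Te for cysteine, glutamine and glutamate, are light-strand genes too, with 2289, 1762 and 346 reads over all cells. They were followed by the heavy-strand valine gene mt-Tv with 252. mt-Te had 0 reads over the 7 day 3 cells against 255 over the 6 day 0 cells. The 8 light-strand tRNA genes held 93.4%, 93.0%, 97.5% and 94.0% of tRNA reads on the 4 days, although precursor RNA, antisense RNA and mature tRNA are not separated in these counts.

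The nuclear genes of the same complexes lay on the lower side on day 3 as well, by a smaller margin than the mt genes in the medians. These lists were chosen with earlier results of these data known. On day 3 against day 0, 18 of 35 measured complex I genes were at least 2-fold lower and 2 higher, with a median of -1.02, where 23.5% of all genes were lower and 20.7% higher. For complexes III, IV and V, 5 of 9, 5 of 10 and 6 of 14 were lower and 1, 0 and 2 higher, with medians of -1.24, -1.08 and -0.81. Among them the complex I subunit Ndufs6 stood at 365 CPM on day 0 and 89.4 on day 3, a relative ratio of -2.11. Atp5a1, the alpha subunit of the ATP synthase, stood at 267 and 789 CPM, a ratio of 1.46. On day 6 the 4 medians were -0.59, -0.81, -0.88 and -0.25, and on day 9 they were -1.04, -1.33, -1.41 and -0.77. The 4 genes of complex II, which has no mt-encoded subunit, had medians of -0.68, -0.30 and -0.65 on days 3, 6 and 9, but without day 0 cell 2 those of days 3 and 9 were 0.39 and 0.29.

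Genes for the copying and transcription of mtDNA lay on the higher side in their median. Of 18 measured on day 3, 6 were at least 2-fold higher and 3 lower than on day 0 (20.7% of all genes were higher and 23.5% lower), with a median of 0.59, and the medians on days 6 and 9 were 0.68 and 0.47. Tfam, which packages mtDNA and starts its transcription, had 0, 0.172 and 5.79 CPM in the day 0 cells (lowest, median, highest), 8.19, 14.8 and 38.3 on day 3, and 0.225, 33.2 and 99.7 on day 6. Its day 9 cells ran from 2.04 to 142 CPM with a median of 22.4. Day 3 lay above day 0 in every cell, as for 1.80% of all genes. Its relative ratios to day 0 were 3.02, 3.57 and 4.25, and 3.85, 4.43 and 5.10 without day 0 cell 6. The day 9 ratio was 3.61 without day 9 cell 3. Tfb2m, of the same list, lay on the lower side, with -2.865, -2.28 and -1.34 on days 3, 6 and 9 against day 0. Without day 0 cell 4 its ratios were -0.49, 0.11 and 1.06.

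Among 17 measured genes of mt-RNA processing and stability, 6 were at least 2-fold higher and 2 lower on day 3, where 20.7% and 23.5% of all genes were, with a median of 0.27. The medians on days 6 and 9 were -0.11 and -0.26, of the other sign, and both turned sign under some alternatives. Supv3l1, a helicase of mt-RNA decay, had 0 to 2.61 CPM in the day 0 cells and 8.35 to 51.4 on day 3, without overlap, as for 1.80% of all genes. Slirp, of the same list, lay on the lower side, with relative ratios of -1.29, -0.61 and -1.53 on days 3, 6 and 9 against day 0. The 73 measured mitoribosomal protein genes, whose products assemble with the 2 rRNAs, had medians of -0.15, 0.08 and -0.13 on days 3, 6 and 9, while the rRNAs had -2.41, -2.72 and -2.93. In summed CPM the rRNAs did not fall steadily over these days. mt-Rnr1 had 839, 856 and 953 CPM, and mt-Rnr2 had 21324, 23530 and 21240. For import, chaperone and outer membrane genes the medians were 0.60, 0.41 and 0.09. The biogenesis regulators, 8 listed of which 6 to 7 were measured, had medians of 0.08, -0.48 and 0.07.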

How the data were processed

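RNA libraries of 24 single mESCs were used, 1 cell each. The authors deposited whole-number read counts per gene, not normalized, for each library. The 5 closing lines of each file, for reads not assigned to a gene, were left out. Per the submitters' processing notes, the tools and builds of the series include Trim Galore 0.6.7, Bismark, Bowtie2 2.2.9 and mm10. For RNA, neither the aligner nor the counter, its annotation or its use of strand was given in the sources used here. Of 55401 gene IDs, 55141 were matched to a symbol without the version suffix. Positions and lengths came from RefSeq on GRCm38.p6.

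Counts were summed over the cells of a day and scaled to CPM, with 1 CPM added for log2 ratios and a minimum of 20 reads in at least 2 libraries. Reads carry no molecular identifiers, so exact 95% intervals cover counting error only, and a floor of 3 reads applies. The 61 pairs of libraries within a day were compared by a chi-square over genes, and no library repeated another, the lowest value per degree of freedom being 35.5. Ratios were tested on simulated data. Alternatives were edgeR (4.0.16) TMM and DESeq2 (1.42.0) size factors, other totals, pseudocounts, minimums and averages, and leaving out each cell. Leaving out the 6 genes from mt-Co2 to mt-Nd4l and the alternatives for ratios of 2 genes, cell overlap and nuclear lists were added after seeing the data. All protein and rRNA genes and the 5 most-read tRNA genes are named, and of other lists the text gives examples from the 2 most-read members and those with the highest and lowest ratios. Members and lists were chosen with earlier results of these data known. Scripts ran in R 4.3.3 and in Python 3.11.15, using scipy 1.17.1 for intervals, pandas 2.3.3 and numpy 2.4.6 for sums and matplotlib 3.10.9 for figures.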

Additional observations from a re-analysis of the deposited data

Results flagged for a closer look

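Of 84 groups of cells examined, 15 had a cell set far apart from the others of its day. The limits used flag about 1 in 20 groups where values are normally distributed. Levels of single cells need not be, so that rate is not an expectation for these groups. Many of the 15 are the same cell, since its genes vary together.

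Cell 4 of day 9 held 18.6% mt reads, and the other 4 cells 2.41% to 6.72%. The same cell had 39991.1 CPM per kb of mt-Nd1, a complex I subunit (others 2133 to 8642), 3787.73 of mt-Nd2 (492 to 1261), 35752.8 of mt-Co1 (1714 to 8145), 6348.2 of mt-Nd4 (352 to 1565), 5395.94 of mt-Nd5 (493.4 to 1625) and 29698.5 of mt-Cytb (897 to 8693). It was also the highest of its day in mt-Rnr1, at 2274 CPM per kb (546 to 1131), by a gap below the limit used for 5 cells, and in mt-Rnr2, at 20373, it lay within the range of the others (6569.7 to 21213).

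Cell 3 of day 6 had 2360.69 CPM per kb of mt-Rnr1 (others 377 to 1024), 510.787 of mt-Co3 (61.5 to 205) and 40.7 of mt-Nd3 (1.07 to 8.69), and a complex IV density of 2.27 (1.69 to 1.91). Cell 4 of day 0 had 153.574 CPM per kb of mt-Nd3 (14.5 to 55.8). Cell 6 of day 3 had a complex I density of 0.524 (0.375 to 0.403) and a complex IV density of 2.36 (2.69 to 2.82), and cell 2 of day 0 had a complex I density of 0.566 (0.708 to 0.761). Values for mt-Co3 and mt-Nd3 carry the uncertainty of the nuclear copy.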

How the results depend on the processing

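No paired analysis was possible because no test was made and the cell numbers only name cells. All alternatives named above were run. With CT010467.1 out of the total, the mt share was 24.4%, 7.30%, 8.38% and 10.3% on days 0, 3, 6 and 9. With mt rRNA left out it was 4.86%, 1.11%, 3.03% and 5.12%, so that day 9 stood above day 0 in place of below it, and day 9 was at 2.83% when cell 4 was also left out, an alternative chosen after seeing the data. Without the 6 genes from mt-Co2 to mt-Nd4l, the density of complex I was 0.588, 0.327, 0.559 and 0.615 on days 0, 3, 6 and 9, that of complex IV 2.59, 3.93, 2.65 and 1.90, and that of complex III 0.914 and 0.399 on days 0 and 3. Without the 4 protein genes from mt-Atp6 to mt-Nd4l, the part matched by the placed nuclear copies, complex IV had 3.02 on day 3. Complex V was then mt-Atp8 alone, a gene of the uncertain run with 297 reads over all cells. It had 0.00233, 0.000756, 0.00220 and 0.00184 on days 0, 3, 6 and 9. Without length, complex IV had 2.07, 3.13, 2.12 and 1.52, complex III 1.60 and 0.702 on days 0 and 3, and complex V 0.0141, 0.0157 and 0.00877 on days 0, 6 and 9. Day 3 kept the lowest complex I and highest complex IV density in each of these.

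The median ratio of the 13 genes on day 3 was -3.19 and -1.92 with pseudocounts of 0.1 and 10 CPM. The count at least 2-fold lower on day 6 against day 0 was 6 by the median of CPM, 3 with a pseudocount of 10 and 4 with a minimum of 1 read. On day 9 against day 0 it was 2 with a pseudocount of 10 and 3 with a minimum of 1 read. On day 9 against day 6, 1 was higher with DESeq2 size factors or by the median of CPM. Without CT010467.1 in the total, cells of days 6 and 3 separated for 3 genes. The cause was not tested.

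Leaving out 1 cell, the median ratio against day 0 ran from -2.99 to -2.44 (day 3), -1.44 to -0.84 (day 6) and -1.82 to -1.01 (day 9), 0.96 to 1.53 for day 6 against day 3 and -0.34 to 0.34 for day 9 against day 6. The count lower ran from 5 to 13 on day 6 against day 0 and 0 to 1 on day 9 against day 6, and the count higher there from 0 to 3. Counts of genes with separate cells ran from 5 to 10 on day 6 against day 3 and 0 to 1 on day 6 against day 0.

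Medians of the nuclear lists, on the relative log2 scale against day 0, turned sign for some lists. Those of complexes I, III and IV and of mtDNA copying and transcription did not do so on any day under any alternative or with any 1 cell left out. On day 3, leaving out 1 cell, they ran from -1.33 to -0.84, -1.51 to -1.01, -1.37 to -0.89 and 0.28 to 0.85. Complex V turned only on day 6, from -0.55 to 0.22 over the alternatives. Genes of mt-RNA processing and stability turned on days 6 and 9 but not on day 3. Over the alternatives they ran from -0.33 to 1.00 on day 6 and -0.67 to 0.47 on day 9. Complex II, from -1.07 to 0.39 on day 3 leaving out 1 cell, the biogenesis regulators (-0.25 to 0.28) and the mitoribosomal proteins (-0.36 to 0.03) turned on each day under an alternative or without a cell, and import genes on day 9 (-0.38 to 0.65 over the alternatives).

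Some list members turned direction. By the median of CPM, Tfb2m had 1.00 and 0.57 on days 3 and 9, Sdhd 1.10, 2.49 and 0.74 on days 3, 6 and 9, Thy1 0.57 on day 3, Yy1 0.44 on day 6, and Fastk 0.079 and Sall4 -0.75 on day 9. Leaving out 1 cell, Sdhd ran from -2.36 to 0.74 on day 3, -1.56 to 1.49 on day 6 and -2.24 to 0.86 on day 9 (upper ends without day 0 cell 2), Tfb2m from -4.82 to 0.11 on day 6 and -2.32 to 1.06 on day 9 (without day 0 cell 4), Yy1 from -1.65 to 0.82 on day 6 (without day 0 cell 6), and Sall4 from -0.63 (without day 9 cell 3) to 3.25 on day 9.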
